A study of Medicago truncatula with 18 samples.

Results

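*MtFTb1* (*Medtr7g006630*) and *MtFTb2* (*Medtr7g006690*) are the FTb paralogs of the barrel medic *Medicago truncatula*, 2 of the 50444 genes measured here by RNA-Seq. They were taken by their identifiers from the deposited tables, each alone and as their sum, since reads that fit several transcripts had been divided between them. By their identifiers both lie on chromosome 7 of the Mt4.0 genome, with 1 further gene identifier between them. Each of the 18 libraries was made from 2 pooled first trifoliate leaves of different plants of the cultivar Jester, and the 6 groups of 3 libraries crossed short days (SD, 8 h of light) or long days (LD, 16 h of light) with ZT0, ZT2 and ZT4, where ZT is the number of hours after lights on. All plants, the SD controls included, had been vernalised as germinated seed for 25 days at 4 °C and had spent 10 days in SD, after which the LD plants were moved to LD. The ZT0 and ZT2 leaves came from a first experiment on plants 13 days old, 3 days after the shift, with ScriptSeq libraries. The ZT4 leaves came from a second experiment on plants 15 days old, 5 days after the shift, with TruSeq libraries. Between ZT4 and the earlier times the hour therefore cannot be told apart from the age of the plants, the days since the shift and the kit.

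FT proteins belong to the phosphatidylethanolamine-binding protein family and act as florigen, the mobile signal that is made in leaf veins in an inductive daylength and moves through the phloem to the shoot apex. At the apex of *Arabidopsis thaliana* FT works with a bZIP partner to switch on floral genes such as *SOC1* and *APETALA1*. Legumes carry several FT-like genes in the FTa, FTb and FTc groups, and *MtFTb1* can replace *FT* in an *Arabidopsis ft* mutant. The comparisons below address in which daylength and at which hour of the morning the FTb pair was expressed in the leaf.

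The pair was silent in SD and came on during the morning of LD. *MtFTb1* was listed at 0 in all 9 SD libraries and in the 3 LD libraries at ZT0. In LD at ZT2 its 3 libraries held 6, 5 and 7 reads, which the authors' tables give as 0.552, 0.492 and 0.678 TPM (a level scaled to transcript length and library size). In LD at ZT4 they held 160.0, 192.6 and 184.1 estimated reads, or 12.2, 14.2 and 13.4 TPM. The LD ZT4 libraries thus lay far above the LD ZT2 libraries, which in turn lay above the 12 libraries at 0, and no groups overlapped in this order.

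*MtFTb2* had the same order with fewer reads. It was listed at 0 in the same 12 libraries and in 2 of the 3 LD libraries at ZT2, the exception being LD ZT2 replicate 2 with 3 reads (0.283 TPM). In LD at ZT4 its libraries held 92.9, 96.4 and 105.9 estimated reads, or 6.79, 6.79 and 7.40 TPM. LD ZT4 stood apart from all other groups, while LD ZT2 overlapped the groups at 0.

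Summed over both genes, LD at ZT4 reached 19.0, 20.9 and 20.8 TPM and LD at ZT2 reached 0.552, 0.775 and 0.678 TPM. The means were 20.3 ± 1.08 TPM (SD, n = 3) and 0.668 ± 0.112 TPM (SD, n = 3). A count of 0 allows up to 3 reads in a library, which was 2.52 to 3.60 normalised counts at depths of 18009808 to 23201592 estimated counts. Such floors, and the intervals below, cover counting error only. In a pooled leaf, fewer expressing cells and less RNA per cell cannot be told apart.

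**Figure D1:**
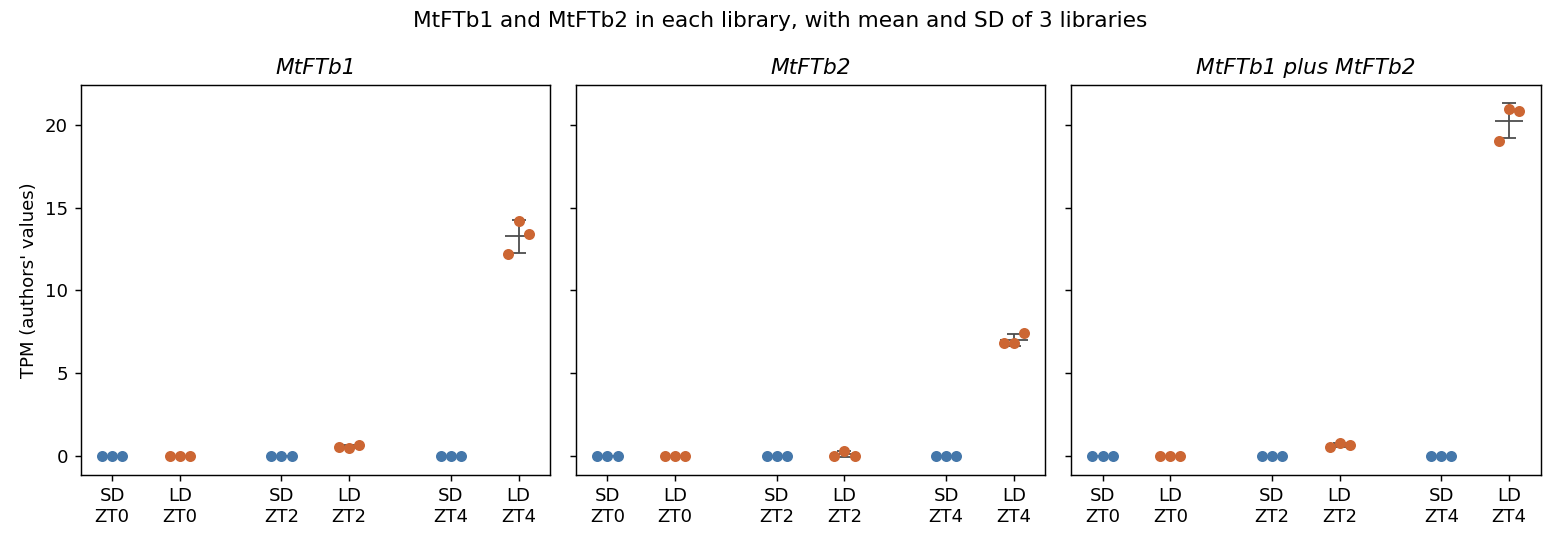
TPM of *MtFTb1*, of *MtFTb2* and of their sum on the vertical axes in each of the 6 groups on the horizontal axes, with each library as a point (SD blue, LD orange) and the mean and SD of 3 libraries in grey. The 3 LD ZT4 libraries lie between 12.2 and 14.2 TPM for *MtFTb1* and between 6.79 and 7.40 TPM for *MtFTb2*, and all SD and LD ZT0 libraries lie at 0.

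At ZT4 the difference between LD and SD was larger than the spread between replicates for both genes. The mean of *MtFTb1* in LD was 57.0-fold the floor of 3 counts per library in SD (adjusted p = 4.86e-09 for LD against SD, by edgeR's quasi-likelihood test). The mean of *MtFTb2* was 31.4-fold that floor (adjusted p = 7.70e-07) and that of the sum 88.4-fold (adjusted p = 1.19e-09) by edgeR's quasi-likelihood test. Both genes passed, where 12.4% of the 31363 genes tested were higher in LD at ZT4. An exact two-sided permutation test of the TPM of the 3 LD against the 3 SD libraries gave p = 0.1 for each gene, the smallest value that 3 against 3 allows.

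The call on *MtFTb2* at ZT4 depended on the tool and on 1 library. The Wald test of DESeq2 gave it an adjusted p of 0.228, with a standard error of 5.14 on a fitted log2 difference of 9.04. When the only library outside LD ZT4 that held reads of the gene, LD ZT2 replicate 2, was left out, the same test gave a standard error of 1.25 and an adjusted p of 1.20e-11. For the sum, DESeq2 gave an adjusted p of 6.63e-17 with that library and 8.05e-17 without it.

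At ZT2 the pair was at the edge of detection. The 18 reads of *MtFTb1* in the LD libraries had a 95% Poisson interval of 10.7 to 28.4 reads over the 3 libraries. Their mean normalised count was 1.95-fold the SD floor, a fold that leaves out this interval. The difference between LD and SD passed (adjusted p = 4.31e-04 by edgeR's quasi-likelihood test). The 3 reads of *MtFTb2* (95% Poisson interval 0.619 to 8.77 reads) did not pass (adjusted p = 0.218 by edgeR's quasi-likelihood test), and no difference was detectable at this depth. The sum passed (adjusted p = 2.10e-04 by edgeR). At this time 10.3% of the genes tested were higher in LD, and at ZT0, where 15.5% were higher, neither gene had a read in either daylength.

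Within LD the level rose from ZT0 to ZT2 and again to ZT4. From ZT0 to ZT2 the rise passed for *MtFTb1* (adjusted p = 3.83e-04) and for the sum (adjusted p = 1.90e-04) and did not pass for *MtFTb2* (adjusted p = 0.215), all by edgeR, where 11% of genes rose. From ZT2 to ZT4 *MtFTb1* rose by 4.51 ± 0.26 on the log2 scale of normalised counts (SE, edgeR, adjusted p = 1.71e-07), and its mean TPM was 23.1-fold higher. The sum rose by 4.92 ± 0.23 (SE, adjusted p = 3.53e-08) in the same test, and its mean TPM was 30.3-fold higher. *MtFTb2* also passed (adjusted p = 6.68e-06 with edgeR, 0.523 with DESeq2, and 3.46e-07 with DESeq2 without LD ZT2 replicate 2), and its lowest ZT4 library was 24.0-fold above its highest ZT2 library in TPM. Of all genes tested, 8.25% rose from ZT2 to ZT4 in LD. The ZT2 and ZT4 libraries of LD also differ in experiment, age, kit and days in LD (3 and 5). The SD libraries of the ZT4 experiment held 0 reads of either gene, but their plants had spent no days in LD.

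Whether the effect of daylength differed between the 3 timepoints could not be answered by edgeR's quasi-likelihood test, which gave an interaction p of 1 for both genes and for the sum, as all 9 SD libraries were at 0. On log2(TPM + 0.1), limma gave adjusted interaction p-values of 1.20e-10 for *MtFTb1*, 6.07e-07 for *MtFTb2* and 6.48e-11 for the sum. With every SD library at 0, these values restate the change over time in LD on that scale. The groups at 0 add no spread between replicates to them. By that limma test 29.1% of all genes passed, and 30.4% passed the edgeR interaction test.

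Few genes went from 0 reads in SD to many in LD at ZT4. Chosen after the values were seen, the following counts describe all 50444 genes. In the 3 SD libraries at ZT4, 20999 genes had 0 reads, and 160 of these had reads in all 3 LD libraries at ZT4. *MtFTb1* had at least 160.0 and *MtFTb2* at least 92.9 reads in each LD ZT4 library, while the next of the 160 genes, *Medtr3g435300*, had at least 11 and the one after it, *Medtr8g063900*, at least 8. With a minimum of 50 reads in every LD ZT4 library, these 2 genes were the only ones at 0 in SD at ZT4. The strict 0 leaves out the FT-like gene *MtFTa1*, which had 0 to 2 reads in SD and 79 to 139 in LD at ZT4. Its SD reads lay within the floor of 3 counts. In the opposite direction, no gene had at least 50 reads in every SD ZT4 library and 0 in LD at ZT4, and 3 genes did so with a minimum of 10. The strict 0 also leaves out the DOF factor gene *MtCDF1*, with 169 to 225 reads in SD and 0 or 1 in LD at ZT4.

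**Figure D2:**
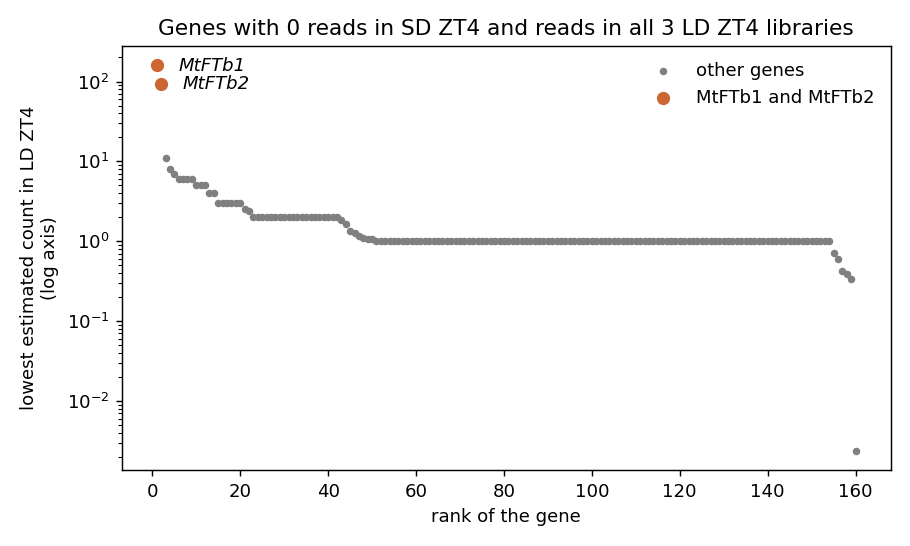
The 160 genes with 0 reads in SD at ZT4 and reads in all 3 LD ZT4 libraries, ranked on the horizontal axis by the lowest estimated count among the 3 LD ZT4 libraries, shown on a logarithmic vertical axis. *MtFTb1* (160.0) and *MtFTb2* (92.9) lie above the remaining genes, the highest of which is at 11.

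The paralogs contributed unequally. In LD at ZT4 *MtFTb1* made up 64.3%, 67.6% and 64.5% of the summed TPM, with a mean of 65.4% ± 1.87 (SD, n = 3), so it was 1.90 ± 0.162 (SD, n = 3) times as abundant per transcript length as *MtFTb2*. *MtFTb1* was the higher in 3 of 3 libraries, by 5.42 to 7.37 TPM. An exact two-sided sign-flip permutation test gave p = 0.25, the smallest value that 3 libraries allow. At ZT2 the shares were 100%, 63.5% and 100%, and pooled over libraries 18 of 21 reads belonged to *MtFTb1*, or 85.7% (Wilson 95% interval 65.4 to 95.02%), against 64.5% (61.2 to 67.7%) of the 832 reads at ZT4. The shares at ZT2 and ZT4 were not told apart by an exact permutation test over libraries (p = 0.4, two-sided). The estimated counts at ZT4 were not whole, as Salmon had divided reads between like transcripts, so the share rests on that split. The sums lay within 0.0642 of a whole number, which does not show how many reads were divided. How far the sums depended on the split was not tested.

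In the transcript pool of the LD ZT4 leaf the pair was of ordinary abundance. By TPM *MtFTb1* stood above 76.1%, 79.4% and 78.7% of the genes listed above 0 in the 3 libraries, and *MtFTb2* above 65.0%, 66.2% and 68.1%.

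The other FT-like genes had other time courses. *MtFTa1* (*Medtr7g084970*), a known floral activator of *M. truncatula*, was already present in LD at ZT0, with 6.32, 3.44 and 5.33 TPM, and at ZT2, with 2.11, 3.29 and 3.41 TPM. At ZT4 its LD libraries held 10.2, 7.61 and 5.52 TPM, and no SD library exceeded 0.178 TPM at any time. Its difference between LD and SD passed at ZT0 (log2 difference 5.17 ± 0.49 SE, adjusted p = 6.65e-08), at ZT2 (6.14 ± 0.66, adjusted p = 4.12e-07) and at ZT4 (6.51 ± 0.47, adjusted p = 1.52e-09), all by edgeR, and its interaction with time did not pass (adjusted p = 0.647, edgeR). From ZT2 to ZT4 in LD *MtFTa1* rose by 1.38 ± 0.27 (SE, adjusted p = 8.34e-04) on the log2 scale in the same test.

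In LD the pair lay below *MtFTa1* at ZT0 and ZT2 and above it at ZT4. As ZT4 came from the second experiment, the hour cannot be told apart from the experiment in this change. At ZT0 the pair made up 0% of the summed TPM of the 5 FT-like genes in every LD library. At ZT2 it made up 18.3%, 14.6% and 14.9%, below *MtFTa1* in all 3 libraries. At ZT4 it made up 61.6%, 70.7% and 75.4%, and it exceeded *MtFTa1* in all 3 libraries, by 1.87-fold to 3.77-fold (p = 0.25, exact two-sided sign-flip permutation test within libraries, the smallest that 3 libraries allow).

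*MtFTa2* (*Medtr7g085020*), the other FT-like gene with reads, moved differently. It was higher in LD than in SD at ZT0 (2.10 ± 0.944 against 0.938 ± 0.230 TPM, SD, n = 3; adjusted p = 0.0409 by edgeR) and lower at ZT4 (1.34 ± 0.321 against 2.80 ± 0.202 TPM; adjusted p = 0.0205 by edgeR), and its interaction passed (adjusted p = 0.00371, edgeR). *MtFTa3* (*Medtr6g033040*) had 0 reads in all 18 libraries. The TFL1-like gene *Medtr0020s0120*, of the family branch that delays flowering in *Arabidopsis*, had 7 to 8 reads in SD and 0 to 2 reads in LD at ZT4, and was lower in LD (log2 difference -2.77 ± 0.80 SE, adjusted p = 0.0124 by edgeR).

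**Figure D3:**
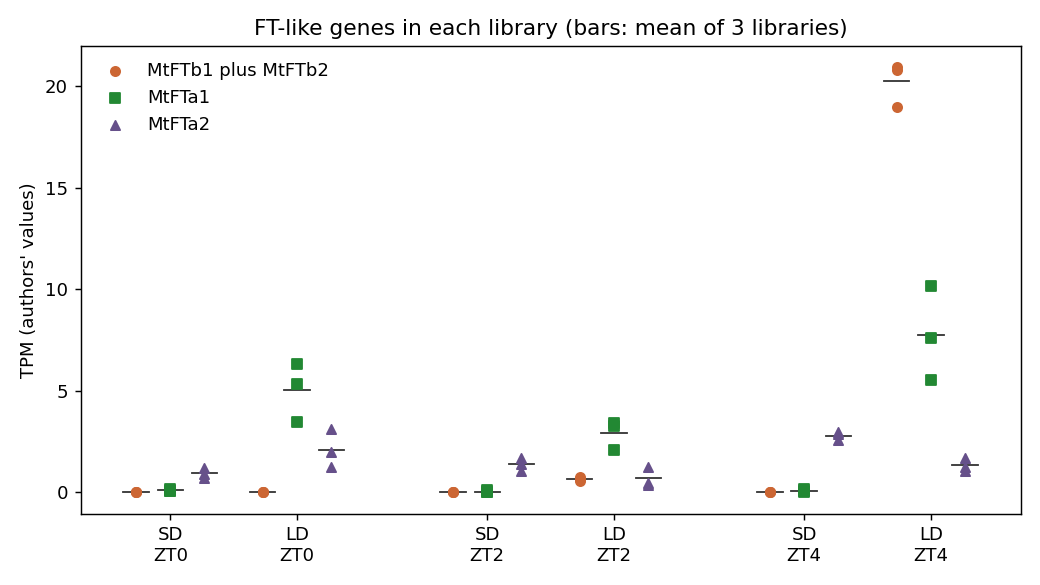
TPM of the *MtFTb* pair (orange circles), *MtFTa1* (green squares) and *MtFTa2* (purple triangles) on the vertical axis in each library of the 6 groups on the horizontal axis, with the mean of 3 libraries as a bar. The pair lies below *MtFTa1* in LD at ZT0 and ZT2 and, at 19.0 to 20.9 TPM, above it in LD at ZT4.

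Other genes of the photoperiod pathway were taken from the candidate lists of the study, assembled there from roles in flowering, mostly known from *Arabidopsis*. Of 144 candidates other than the pair, 136 could be tested. At ZT4, when the pair was on, 36 were higher and 48 lower in LD, where 12.4% of all genes were higher and 16.9% lower. At ZT2 28 were higher and 35 lower, against 10.3% of all genes higher and 10.3% lower, and at ZT0 35 were higher and 49 lower, against 15.5% and 14.2%. Their median log2 difference at ZT4 was -0.12, and that of all genes -0.04.

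*MtFKF1* and *MtGI*, whose *Arabidopsis* counterparts time *FT* expression by light, were lower in LD at ZT4. *MtFKF1* (*Medtr8g105590*), a blue-light receptor with an F-box, stood at 0.241 ± 0.0029 TPM in LD and 8.08 ± 1.36 TPM in SD at ZT4 (SD, n = 3). Its partner *MtGI* (*Medtr1g098160*) stood at 15.0 ± 3.31 and 53.4 ± 1.73 TPM. Both passed, where 16.9% of all genes were lower, with log2 differences of -4.99 ± 0.21 (SE, adjusted p = 1.20e-12) and -1.78 ± 0.12 (SE, edgeR, adjusted p = 4.51e-10). The third gene of their list, *MtZTL* (*Medtr2g036510*), did not pass (log2 difference 0.03). At ZT0 *MtFKF1* was instead higher in LD (log2 difference 3.32 ± 0.41 SE, adjusted p = 2.41e-06, edgeR), at 14 to 33 against 2 to 3 reads. *MtGI* was lower in LD at ZT0 as well (-3.31 ± 0.25).

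The cycling DOF factors, which in *Arabidopsis* repress *FT* and its activator *CONSTANS*, were mostly higher in LD at ZT4, with *MtCDF1* the exception. *MtCDF1* (*Medtr2g059540*) was lower in LD at ZT4, with 169 to 225 reads in SD and at most 1 read in LD (12.2 ± 1.65 and 0.0393 ± 0.0341 TPM; adjusted p = 6.14e-10, edgeR), and it had 0 reads at ZT0 in both daylengths. Of the 14 genes of the list, 9 were higher in LD at ZT4, 1 was lower and 4 did not pass. Of all genes tested 12.4% were higher and 16.9% lower. The largest rise was that of *MtCDF5* (*Medtr6g027460*, log2 difference 4.79 ± 0.28 SE, adjusted p = 6.66e-11, edgeR), from 0.214 ± 0.0846 to 5.81 ± 0.247 TPM. The median log2 difference of the list was 2.29.

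*MtE1* (*Medtr2g058520*), whose soybean counterpart is a B3 domain repressor of *FT* genes in LD, was higher in LD at ZT2 (27 to 45 reads against 6 to 11, adjusted p = 3.43e-04, edgeR) and at ZT4 (24 to 49 against 7 to 17, adjusted p = 0.0111, edgeR). At ZT0 it had at most 5 reads in any library.

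Downstream of FT in *Arabidopsis* lie the MADS-box genes *SOC1* and *FUL*, of which 2 of 6 were higher in LD at ZT4 and none lower in edgeR's quasi-likelihood test. Of all genes tested 12.4% were higher and 16.9% lower. *MtSOC1a* (*Medtr7g075870*) stood at 10.95 ± 1.204 TPM in LD and 6.45 ± 0.563 in SD (log2 difference 0.81 ± 0.15 SE, adjusted p = 3.20e-04, edgeR). It was also higher at ZT2 (adjusted p = 0.0136, edgeR) and not at ZT0 (adjusted p = 0.685, edgeR). *MtFULb* (*Medtr4g109830*) was higher at ZT4 (adjusted p = 0.0314, edgeR) at 1.11 ± 0.619 against 0.462 ± 0.170 TPM. *MtFULa* (*Medtr2g461760*) had 3 to 11 reads in LD and 0 to 3 in SD at ZT4 and did not pass (adjusted p = 0.0520, edgeR). *MtFULc* (*Medtr7g016630*) and *MtSOC1b* (*Medtr8g033250*) had at most 1 read in any library, and *MtSOC1c* (*Medtr8g033220*) had a log2 difference of 0.04 at ZT4.

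At ZT0 6 of the 17 clock genes tested were higher in LD, *MtLHY* was lower (log2 difference -1.83 ± 0.17 SE), and 8 were lower in all. Over all genes 15.5% were higher and 14.2% lower at ZT0, and 12.4% and 16.9% at ZT4. Of the clock genes 1 was higher and 14 of 17 tested were lower in LD at ZT4. The higher one was *MtLHY* (*Medtr7g118330*), a morning-phased MYB factor, at 405 ± 24.3 against 58.9 ± 5.90 TPM, and the lowest was the pseudo-response regulator gene *MtPRR59a* (*Medtr3g092780*), at 1.95 ± 0.567 against 41.3 ± 4.31 TPM. Of the photoreceptor genes 1 was higher and 4 of 5 tested were lower, with *MtPHYB* (*Medtr2g034040*, log2 difference 0.30 ± 0.08 SE) and the cryptochrome gene *MtCRY2B* (*Medtr1g043190*, -3.10 ± 0.13) at the ends.

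At ZT4, where 12.4% of all genes were higher in LD and 16.9% lower, the CONSTANS-like genes gave 4 higher and 6 lower of 11. The ends were *MtCOLf* (*Medtr5g069480*, log2 difference 2.32 ± 0.19 SE) and *MtCOLe* (*Medtr3g082630*, -3.88 ± 0.34). The other genes with a CCT domain gave 9 higher and 3 lower of 29 tested, between *Medtr4g046640* (5.15 ± 0.57) and *Medtr2g073370* (-4.89 ± 0.43). The AP2 list, named for a family with repressors of *FT* in *Arabidopsis*, gave 0 higher and 6 lower of 8, from *MtTOE1b* (*Medtr2g093060*, -0.27 ± 0.08) to *MtTEM1* (*Medtr1g093600*, -1.52 ± 0.16).

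The remaining lists were small, and at ZT4 12.4% of all genes were higher in LD and 16.9% lower. Among these lists at ZT4, the TOPLESS-like corepressors gave 0 higher and 3 lower of 7, between *Medtr4g009840* (log2 difference -0.52 ± 0.10 SE) and *Medtr7g112460* (-0.77 ± 0.11). The NF-Y genes, which bind DNA with CONSTANS in *Arabidopsis*, gave 1 higher and 2 lower of 5, between *Medtr7g113680* (0.38 ± 0.10) and *Medtr5g095740* (-0.79 ± 0.15). The COP1 and SPA1 genes gave 1 lower of 4, the SPA1-like *Medtr8g027985* (-1.65 ± 0.11), and the PIF genes 1 lower of 9, *MtPIF45* (*Medtr3g449770*, -0.32 ± 0.11). The CBL genes, basic helix-loop-helix factors, gave 6 higher and 4 lower of 14, between *MtCBL4* (*Medtr8g012290*, 1.17 ± 0.33) and *MtCBL14* (*Medtr6g084120*, -1.12 ± 0.34), and *MtFE* (*Medtr6g444980*), a MYB-like gene whose *Arabidopsis* counterpart acts on *FT* in the phloem, was higher (0.57 ± 0.08).

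The level of the pair was not shared by the genes around it. Of 21 genes whose identifiers lie between the pair or among the 10 on either side, 6 had 0 reads in all libraries and 14 could be tested. Of these 14, 1 was higher and 1 lower in LD at ZT4, where 12.4% of all genes were higher and 16.9% lower. The higher one was *Medtr7g006570*, at 99.0 ± 4.40 against 75.2 ± 4.13 TPM (log2 difference 0.46 ± 0.09 SE, adjusted p = 3.84e-04, edgeR), and the lower one *Medtr7g006540*, at 10.6 ± 0.535 against 14.5 ± 0.977 TPM (-0.40 ± 0.10, adjusted p = 0.00373, edgeR). The median log2 difference of the tested neighbours was 0.03, and that of all genes -0.04. *Medtr7g006620*, directly before *MtFTb1*, had 2 reads in each of 2 LD ZT4 libraries and 0 in the other 16, and did not pass (adjusted p = 0.192, edgeR). *Medtr7g006680*, between the pair, had a fitted 0.126 of a read in 1 LD ZT4 library, and *Medtr7g006700*, directly after *MtFTb2*, had none.

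**Figure D4:**
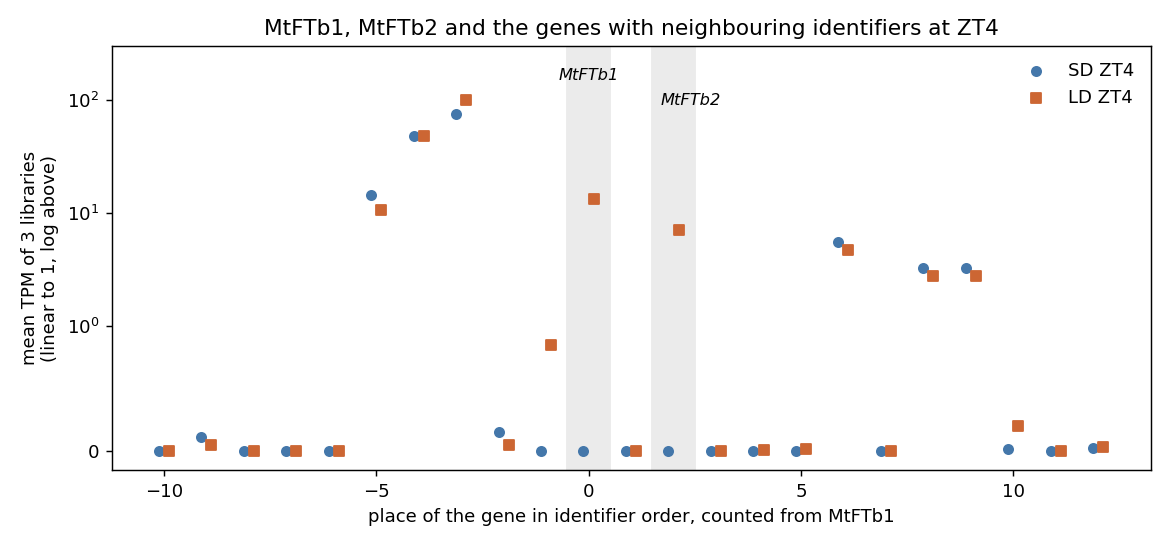
Mean TPM of 3 libraries in SD (blue circles) and LD (orange squares) at ZT4 on the vertical axis, linear to 1 and logarithmic above, for *MtFTb1*, *MtFTb2* (shaded) and the genes with neighbouring identifiers, placed by identifier order on the horizontal axis. *MtFTb1* at 13.3 TPM and *MtFTb2* at 6.99 TPM in LD have 0 in SD, and no neighbour with a mean above 1 TPM in LD has 0 in SD. Among neighbours with 0 in SD the highest in LD is *Medtr7g006620*, directly before *MtFTb1*, at 0.847 TPM from 4 reads.

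The pattern of the summed pair over the 18 libraries was compared with that of 19943 genes with a mean of at least 1 TPM in a group, by Pearson's r of log2(TPM + 1), as a description. The 3 LD ZT4 libraries share an experiment and a kit and weigh most in it. Besides the members themselves, 4 genes had an r above 0.9, and *MtFTa1* had 0.671. The most alike were *Medtr7g091830* (r = 0.933), a putative transmembrane protein gene, *Medtr2g102243* (r = 0.916), annotated as a sulfate, bicarbonate and oxalate exchanger, *Medtr8g461020* (r = 0.907), *Medtr6g027920* (r = 0.906) and *Medtr2g061820* (r = 0.899). They were followed by *Medtr5g040420* (r = 0.896), *Medtr3g101777* (r = 0.890), *Medtr4g128770* (r = 0.879), *Medtr1g019130* (r = 0.879) and *Medtr2g079400* (r = 0.878). None of the 10 has a candidate role in flowering in the lists used here.

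In all 10 the 3 LD ZT4 libraries lay above the other 15, which their choice by r with the pair favours. The minimum mean of 1 TPM favours it too. *Medtr7g091830*, *Medtr2g102243*, *Medtr8g461020*, *Medtr5g040420* and *Medtr2g079400* reached that mean only in LD at ZT4. The LD ZT4 means of the 10 genes were 1.01 to 12.8 TPM. *Medtr7g091830*, the first of them, had 6, 11 and 7 reads in LD at ZT4, 0 in SD at ZT4 and at most 2 in any other library. The most abundant of the 10, *Medtr4g128770*, went from 2.12 ± 0.25 TPM in SD to 12.8 ± 1.83 TPM in LD at ZT4. The least alike genes were *Medtr2g069550* (r = -0.901), *Medtr2g025120* (r = -0.895), *Medtr3g108010* (r = -0.894), *Medtr2g034470* (r = -0.888) and *Medtr8g032040* (r = -0.888). In these 5 the LD ZT4 libraries lay below the other 15, which their choice by r likewise favours. An example is *Medtr2g025120* with 5.23 ± 1.82 TPM in LD and 18.9 ± 4.83 TPM in SD at ZT4. Membership of the list of 10 depended on the measure: 7 of the 10 remained with a pseudocount of 0.1, 4 with normalised counts and 2 with Spearman's rank correlation.

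**Figure D5:**
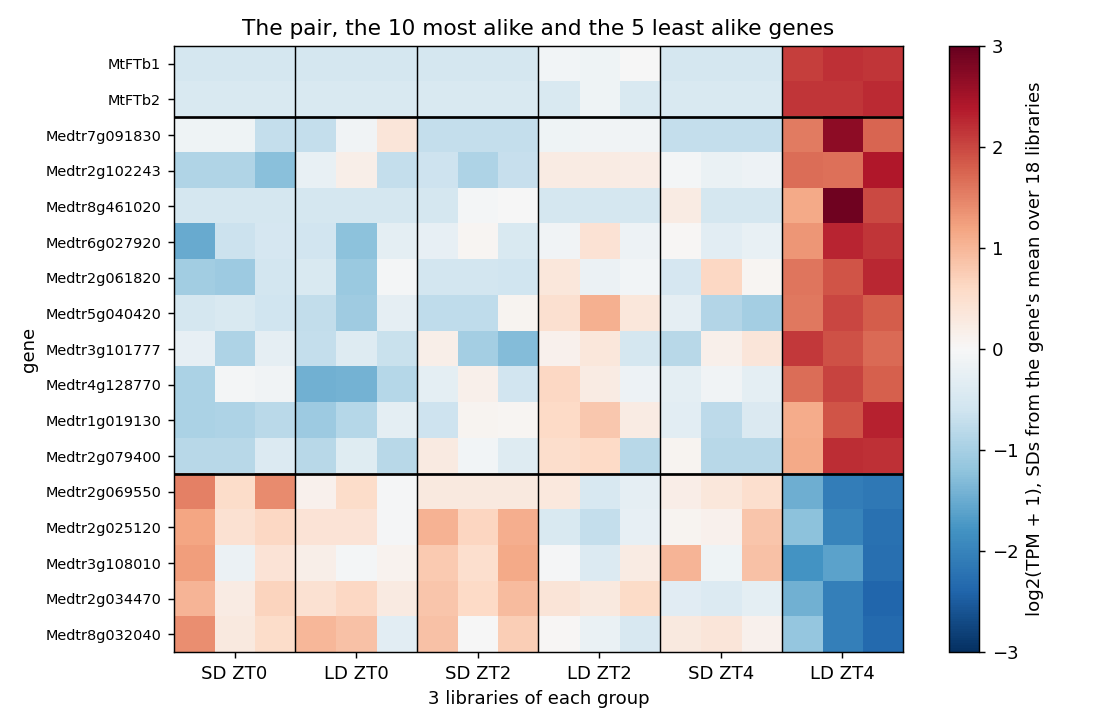
Colour shows log2(TPM + 1) of each gene (rows) in each of the 18 libraries (columns, 3 in each group) in SDs from the gene's mean, for the pair, the 10 most alike and the 5 least alike genes. The 3 LD ZT4 columns are the highest in the 10 genes and the lowest in the 5, which the choice of these genes by r favours. For some of the 10 the minimum mean of 1 TPM favours it too.

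Leaf and nodule markers were measured beside these results. The summed TPM of 7 leaf genes of RuBisCO, its activase and the photosystems was 37580 to 48683 in SD and 59801 to 67431 in LD, with none at 0. The 2 leghemoglobin genes, markers of root nodules, summed to 0.306 to 1.07 TPM in SD and 3.12 to 5.01 TPM in LD at ZT4, and to 0.880 to 4.61 TPM in LD at ZT0, where the pair had no reads. The part of these shifts in the results on the pair was not tested. The 2 genes used as RT-qPCR references summed to 36.1 to 57.8 TPM in all libraries.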

How the data were processed

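The authors trimmed the reads, quantified them against the Mt4.0v2 transcripts with Salmon 0.8.2 and summed transcripts to genes with tximport. They deposited estimated counts, which are not whole because Salmon divides reads between like transcripts, and TPM values as other values of the same quantification. Counts were rounded and tested with edgeR 4.0.16 (quasi-likelihood test, TMM, prior count of 0.125) in R 4.3.3, in 1 model of 6 groups with 12 residual degrees of freedom, over the 31363 genes with a total above 1. The Benjamini-Hochberg adjustment ran over the 3 daylength comparisons together and within each time comparison, with a threshold of 0.05. The sum of the pair replaced both rows in a fit of its own. Standard errors were taken from the F statistics. A library at 0 was given a floor of 3 counts, and a fold against such a group divides the mean normalised count by the mean of that floor. The error of the mean normalised count is not part of that fold.

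Alternatives were DESeq2 1.42.0, its size factors, a length offset, other filters, limma 3.58.1 on log2(TPM + 0.1) and log2(TPM + 1), subsets of libraries, a replicate block and each library left out. DESeq2 without LD ZT2 replicate 2 was added after the data were seen. The fit was tested on simulated data with 30658 genes. At each level 50 genes were present in LD ZT4 and at 0 elsewhere. Of these 50 were recovered at 20, 100 and 200 counts per library and 1 at 5 counts. No other gene differed between LD and SD, which made the adjustment stricter than in the data. The recovery at 5 counts therefore does not carry over to the data. Of 30459 unchanged genes 5 were called at ZT4. Same-numbered SD and LD libraries were not paired by the labels, and their deviations had correlations of -0.21 to 0.15. Replicates differed by more than sampling noise (chi-square per gene 2.31 or more). Named genes were both members, the FT-like and a few further pathway genes by role, the ends of each list at ZT4, neighbours past the threshold, and the 10 most and 5 least alike genes. The members and lists were chosen with earlier results of these data known. P-values measure the spread between pools of leaves, to which groups at 0 add none. No sequence or coordinate of the pair is shown.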

Additional observations from a re-analysis of the deposited data

Results flagged for a closer look

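With every SD library at 0, limma's interaction of daylength and timepoint for the pair restates the change over time in LD. On log2(TPM + 0.1) this interaction had adjusted p-values of 1.20e-10 for *MtFTb1*, 6.07e-07 for *MtFTb2* and 6.48e-11 for their sum. Other tests did not all call it: edgeR's quasi-likelihood test, with all SD libraries at 0, gave an adjusted p of 1 for each, and the likelihood ratio test of DESeq2 gave 0.00269, 0.815 and 0.00108. Among the other genes named by role, the interaction passed in both edgeR and limma for *MtFKF1* (adjusted p = 2.64e-11 and 1.46e-08), *MtGI* (1.91e-06 and 9.76e-04), *MtFTa2* (0.00371 and 0.00915), *MtE1* (0.0159 and 0.00232) and *MtFULb* (0.0297 and 0.0397). It passed in edgeR alone for *MtSOC1a* (0.00741, against 0.0559 in limma) and in limma alone for *MtCDF1* (1.17e-07, against 0.218 in edgeR). As ZT4 came from a second experiment, timepoint and experiment cannot be told apart in these differences.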

How the results depend on the processing

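With DESeq2 the adjusted p of *MtFTb2* was 0.228 at ZT4 and 0.523 from ZT2 to ZT4 in LD; without LD ZT2 replicate 2 it was 1.20e-11 and 3.46e-07. The calls of *MtFTb1* and the sum at ZT2 and ZT4 kept their side of the threshold under every alternative run, as did the lack of a call for *MtFTb2* at ZT2. With each library left out in edgeR, the adjusted p at ZT4 was 1.39e-09 to 2.05e-07 for *MtFTb1*, 2.74e-07 to 1.49e-05 for *MtFTb2* and 2.91e-10 to 5.49e-08 for the sum. For the interaction, edgeR gave an adjusted p of 1 in every setting, and DESeq2's likelihood ratio test gave 0.00269 for *MtFTb1*, 0.815 for *MtFTb2* and 0.00108 for the sum (0.00295, 5.58e-04 and 0.00105 without LD ZT2 replicate 2); limma on log2(TPM + 1) gave 3.44e-12, 1.75e-10 and 5.84e-13, and on log2(TPM + 0.1) 1.20e-10, 6.07e-07 and 6.48e-11. A fitted log2 difference against a group at 0 depends on the prior count: at ZT4 it was 10.25 for *MtFTb1*, 9.39 for *MtFTb2* and 10.88 for the sum as first fitted, and 6.27, 5.42 and 6.89 with a prior count of 2. Of the 10 most alike genes 4 remained with normalised counts, 2 with Spearman's correlation and 4 with no minimum level, and 8 to 10 with a library left out. The share of *MtFTb1* was 64.5% by counts and 64.4 to 66.0% with a library left out. The replicate block, whose numbers do not pair the samples (3 of 9 SD libraries were closest to their own number), changed no call on the pair (adjusted p at ZT4 7.23e-09 and 1.15e-06). At ZT2 the depth limits *MtFTb2*, at 3 reads.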
